A study of Mus musculus with 14 samples.

Results

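The genes described here are 10 of the 28022 genes in a count table of mouse liver cultures: Prl, Dlk2, Cd109, Nes, Siglecg, Atp6v1c2, Rgs12, Aif1l, Slc4a11 and 3110039I08Rik. They were chosen because all were counted in flat (2D) cultures of induced hepatic stem cells and were near absent or strongly lower in 3D cultures of the same cells. The difference between 3D and 2D is therefore the rule of choice and is given below as a description without a test. What the rule did not use was tested: the difference between co-cultures and mono-cultures within 2D and within 3D, and the levels in liver tissue and fibroblasts.

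The study asked how 3D culture and co-culture with endothelial cells affect induced hepatic stem cells (iHepSCs), and RNA-seq covered 7 conditions with 2 libraries each. MEFs, labelled Fib, are C57BL/6J embryonic fibroblasts; iHepSCs were made from such fibroblasts by lentiviral Oct4 and Hnf4α. 2D-iH (label 2D-iHepSC) are iHepSCs in flat culture, and 2D-iHE (label 2D-iHepSCiEC) are iHepSCs grown on collagen-coated plates with induced endothelial cells (iECs), which were made from a human fibroblast line with ETV2. iHLO (label 3D-iHA, matched through the study's text) are organoids of iHepSCs, grown as spheroids and embedded in a hydrogel of collagen and Matrigel, and iHEA (label 3D-iHEA) are assembloids in which iECs were added to that gel. Adult liver and fetal liver of C57BL/6J mice served as reference tissues. The human iECs were present in the 2D-iHE and iHEA cultures only, and human reads entered the table only where they could be counted on a mouse gene; their part in any value of these cultures was not tested. The 3D cultures also differed from 2D in gel, spheroid formation and shaking as well as in shape, and these cannot be told apart. All descriptions in the labels read replicate 1, and nothing says that libraries of a condition came from separate cultures or animals, so p-values measure only the spread between these libraries, which may be technical.

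Libraries held 20851489 to 35143325 counts, and a count of 3 corresponded to 0.0771 to 0.196 CPM, the counts scaled to TMM-adjusted library size that are used as levels below. The libraries of iHEA and of fetal liver differed more from each other, with a chi-square per gene of 8.73 and 10.6, than those of the other 5 conditions, where it was 2.56 to 3.03. Hepatocyte markers summed to 642 to 702 CPM in 2D and 1042 to 1093 CPM in 3D against 11713 to 14809 CPM in fetal liver and 559307 to 591966 CPM in adult liver. Fibroblast markers summed to 29253 to 30496 CPM in MEFs and to at most 14.4 CPM in any culture library. In such bulk libraries, fewer cells of a type and less RNA per cell cannot be told apart.

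These genes do not form 1 pathway, and most are better known outside the liver. Prolactin (Prl) is a hormone of pituitary lactotrophs that signals through the prolactin receptor, JAK2 and STAT5. DLK2 is a transmembrane protein with EGF-like repeats that inhibits Notch signalling, CD109 is a GPI-anchored protein of the alpha-2-macroglobulin family that binds TGF-beta and its receptors, and Siglec-G is an inhibitory receptor of B cells that binds sialic acids. Nestin (Nes) is an intermediate filament protein of neural progenitors and of other dividing progenitor cells, and AIF1L is a calcium-binding protein that bundles actin. ATP6V1C2 is the C2 isoform of a subunit of the proton pump V-ATPase, SLC4A11 is a membrane transporter best known from the corneal endothelium, and RGS12 speeds the switching-off of G proteins. 3110039I08Rik, which RefSeq names Mir100hg, is a long non-coding RNA whose locus holds miR-100, let-7a-2 and miR-125b-1.

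In GRCm38, the 10 genes lay on 8 chromosomes, with Cd109 and 3110039I08Rik on chromosome 9 and Aif1l and Slc4a11 on chromosome 2. The GENCODE annotation places Prl at chr13:27057570-27065205 on the plus strand, Nes at chr3:87971078-87980451 on the plus strand and Siglecg at chr7:43408204-43418358 on the plus strand. Slc4a11 (chr2:130684113-130697519) and Atp6v1c2 (chr12:17284721-17329359) are on the minus strand. 3110039I08Rik spans chr9:41327077-41716994 on the plus strand and was the only gene of the set that was not annotated as protein coding. Its mature miRNAs are shown because the table counts the long transcript that carries them and not the miRNAs themselves. The sequences are from RefSeq (GRCm38.p6), 5′ to 3′, with the seed, bases 2 to 8, in capitals.
mmu-miR-100-5p: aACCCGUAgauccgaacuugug
mmu-let-7a-5p: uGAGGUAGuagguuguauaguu
mmu-miR-125b-5p: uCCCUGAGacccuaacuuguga
The 3 seeds differ, and the mature sequences lie at chr9:41531437-41531458, chr9:41536732-41536753 and chr9:41581940-41581961, all on the plus strand as the host transcript is. The hairpins of miR-100 and miR-125b-1 had no count in any of the 14 libraries, and that of let-7a-2 had at most 1 count. The values for 3110039I08Rik below are therefore those of the long transcript.

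Promoter windows of 150 bases before a RefSeq start site (GRCm38.p6) were found for 8 of the 10 genes, with 12 windows in all; Cd109 and Slc4a11 had none. The 4 shown belong to genes from the hormone, the filament, the proton pump and the actin-binding groups, so that the regulatory sequences of genes that were low together in 3D can be compared. Each reads 5′ to 3′ on the strand of its gene, with matches to the searched motifs in capitals.
Prl: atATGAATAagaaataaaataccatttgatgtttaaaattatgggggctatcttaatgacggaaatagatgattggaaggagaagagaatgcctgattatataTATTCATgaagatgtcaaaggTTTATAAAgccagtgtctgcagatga
Nes: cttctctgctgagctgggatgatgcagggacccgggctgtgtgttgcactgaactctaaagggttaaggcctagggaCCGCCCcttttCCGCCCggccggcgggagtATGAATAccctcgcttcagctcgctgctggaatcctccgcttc
Atp6v1c2: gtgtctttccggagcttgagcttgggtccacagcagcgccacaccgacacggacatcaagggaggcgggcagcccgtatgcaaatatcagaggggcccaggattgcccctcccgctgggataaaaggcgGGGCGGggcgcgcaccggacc
Aif1l: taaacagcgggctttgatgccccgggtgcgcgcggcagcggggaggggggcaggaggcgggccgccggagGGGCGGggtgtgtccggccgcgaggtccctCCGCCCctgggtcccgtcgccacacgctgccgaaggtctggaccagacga
They lie at chr13:27057420-27057569 (plus), chr3:87970943-87971092 (plus), chr12:17324731-17324880 (minus) and chr2:31950153-31950302 (plus). Motifs were searched on both strands and were picked after the values of the genes had been seen.

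The Prl window differed most from the other 3. It had a GC content of 31.3% with 1 CpG, whereas the windows of Nes, Atp6v1c2 and Aif1l had 60.7%, 66% and 76.0% with 9, 12 and 19 CpGs; the median over all 32851 mouse windows was 54.0% with 4 CpGs. A TATA box (TATAAA) was in the Prl window alone among the 12, on both strands in overlapping letters that start 26 and 24 bases before the start site, and 7.57% of all windows held one. The letters ATGNATA, a core of the site bound by the pituitary factor POU1F1, were found 148 and 47 bases before the Prl start and 43 bases before the Nes start, and were in 4.17% of all windows. A GC box (GGGCGG) was in the windows of 5 of the 8 genes, Nes, Atp6v1c2 and Aif1l included, and in 28.6% of all windows. The AP-1 letters TGANTCA were in 1 window of Rgs12 and in 4.24% of all, the RBPJ letters TGGGAA were in 1 window of 3110039I08Rik and in 13.1% of all, and the TEAD letters GGAATG were in none of the 12 and in 7.59% of all. No motif was shared by all 8 genes.

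Across the set, the mean level in 2D was 20.4 to 618 times that in 3D, with a median of 50.5, and 0.162% to 4.90% of the 2D level was left in 3D. Every 3D library lay below every 2D library for all 10 genes, a pattern shared by 36.8% of the 13409 genes tested over the 8 culture libraries. At an adjusted p under 0.05 in edgeR, 37.2% of those genes were lower in 3D and 38.7% higher. As the genes were chosen on this contrast, nothing is read from these shares for the set. The fitted log2 fold changes ran from -8.98 for Siglecg to -4.32 for 3110039I08Rik. That of Siglecg rested on 3 counts in 3D and was -9.89 without iHLO replicate 1. Without the iHEA libraries, Siglecg was at -8.12, Nes moved from -7.66 to -9.21 and Slc4a11 from -4.63 to -5.31. Of the tested genes 69, these 10 among them, reached -4.32 or lower, and all 10 passed the filter on low counts.

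**Figure D1:**
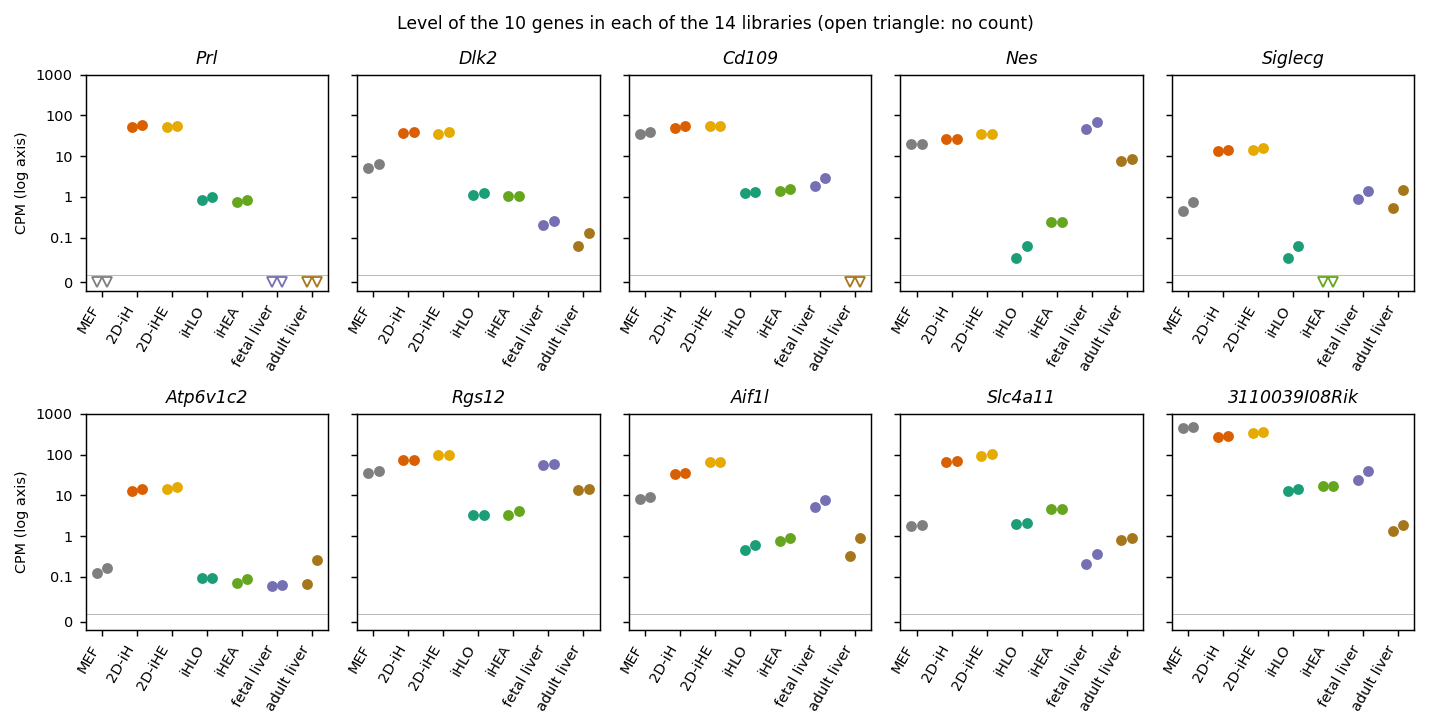
CPM (log axis, scaled by TMM over the 14 libraries) of each gene in each library by condition; each point is 1 library and open triangles mark libraries with no count. In all 10 panels the 4 libraries of 2D-iH and 2D-iHE lie above the 4 of iHLO and iHEA, while the MEF and liver levels differ from gene to gene.

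Among the secreted and surface proteins, prolactin was the clearest case of a gene counted in cultures alone. Prl was at 57.1 and 51.5 CPM in 2D-iH, 53.6 and 50.3 CPM in 2D-iHE, 0.978 and 0.842 CPM in iHLO and 0.756 and 0.815 CPM in iHEA. All 4 flat cultures were thus within a narrow band and all 4 gel cultures within another. The mean was 53.1 ± 2.98 CPM (SD, n = 4) in 2D and 0.848 ± 0.0941 CPM (SD, n = 4) in 3D, a 62.6-fold difference. No Prl count was found in any MEF, fetal liver or adult liver library, so the 2D level was at least 602-fold above MEFs when these are set to 3 counts per library. The 23 to 32 counts left in each 3D library were still at least 9.61-fold above that bound for MEFs.

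The Notch inhibitor Dlk2 differed little between the flat cultures. Its 2D libraries held 37.0, 38.6, 39.7 and 35.5 CPM and its 3D libraries 1.22, 1.12, 1.06 and 1.06 CPM, in the order 2D-iH, 2D-iHE and iHLO, iHEA. The 2D mean of 37.7 ± 1.82 CPM (SD, n = 4) was 33.7 times the 3D mean. MEFs, from which the iHepSCs were made, had 4.97 and 6.48 CPM and so lay between the 3D and the 2D cultures.

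The TGF-beta co-receptor Cd109 was well counted in fibroblasts as in flat cultures. It was at 53.7 and 48.8 CPM in 2D-iH, 54.3 and 54.2 CPM in 2D-iHE, 1.28 and 1.22 CPM in iHLO and 1.57 and 1.42 CPM in iHEA, with 37.9 and 34.6 CPM in MEFs. The 2D level was 38.4 times the 3D level but only 1.46 times the MEF level, though no MEF library reached the lowest 2D library.

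Siglecg, the sialic acid lectin of B cells, came closest to absence in 3D. It was at 14.2 and 13.1 CPM in 2D-iH and 15.4 and 14.3 CPM in 2D-iHE, from 345 to 600 counts a library. In 3D, iHLO libraries had 2 and 1 counts and both iHEA libraries had none. Over the pooled counts the ratio of 2D to 3D was 602, with a 95% interval of 206 to 2923 that covers counting error only. Against 3 counts per library in iHEA, the level in 2D-iHE was at least 151-fold higher.

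Of the cytoskeletal genes, nestin had the larger difference. Nes was at 25.8 CPM in both 2D-iH libraries and at 35.2 CPM in both 2D-iHE libraries. It had 2 and 1 counts in iHLO and 8 and 7 counts in iHEA, or 0.0612, 0.0312, 0.242 and 0.248 CPM. The ratio of 2D-iH to iHLO was 558, with a counting interval of 190 to 2702, and that of 2D-iHE to iHEA was 144. MEFs had 19.3 and 20.1 CPM, and fetal liver had the highest level of all conditions with 46.8 and 68.1 CPM.

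Aif1l had the widest spread between the flat cultures relative to its mean. Its level was 34.1 and 34.8 CPM in 2D-iH, 65.8 and 64.2 CPM in 2D-iHE, 0.612 and 0.468 CPM in iHLO and 0.756 and 0.886 CPM in iHEA. The 2D mean of 49.7 ± 17.7 CPM (SD, n = 4) was 73.1 times the 3D mean of 0.680 ± 0.181 CPM (SD, n = 4). The co-culture libraries lay above the mono-culture libraries in both formats, in 3D with 25 and 25 counts against 20 and 15. The difference within 3D was not called (log2 0.61, adjusted p = 0.405 in edgeR).

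The proton pump subunit Atp6v1c2 had more than 6 counts in the flat cultures alone. It had 14.4 and 13.0 CPM in 2D-iH and 16.1 and 14.6 CPM in 2D-iHE, and 3, 3, 3 and 2 counts in the 4 libraries of 3D. MEFs had 6 and 4 counts, fetal liver 2 and 2, and adult liver 1 and 4. The ratio of 2D to 3D was 167, with a counting interval of 93.2 to 336.

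The transporter Slc4a11 differed between the 3D cultures. It was at 66.1 and 68.5 CPM in 2D-iH, 104 and 94.4 CPM in 2D-iHE, 1.99 and 2.09 CPM in iHLO and 4.54 and 4.57 CPM in iHEA. Both iHEA libraries thus lay above both iHLO libraries, and all 4 lay far below 2D. The ratio was 33.0 between 2D-iH and iHLO and 21.8 between 2D-iHE and iHEA. In MEFs it was at 1.83 and 1.72 CPM, below each 3D library.

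Rgs12 kept more of its level than most of the others. It was at 75.3 and 74.2 CPM in 2D-iH, 99.98 and 96.1 CPM in 2D-iHE, 3.36 and 3.34 CPM in iHLO and 4.02 and 3.26 CPM in iHEA, a 24.7-fold difference of the means. MEFs (35.9 and 38.6 CPM), fetal liver (56.4 and 58.2 CPM) and adult liver (mean 13.9 CPM) all lay between the flat and the gel cultures.

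The long non-coding RNA 3110039I08Rik had the highest CPM of the set and the smallest fold. Its level was 281 and 273 CPM in 2D-iH, 338 and 357 CPM in 2D-iHE, 12.7 and 14.2 CPM in iHLO and 17.1 and 17.0 CPM in iHEA, a 20.4-fold difference. It was the only gene of the 10 that was higher in MEFs, at 488 and 459 CPM, than in any 2D library. Per kilobase of annotated exon, Prl was the highest in 2D with a mean of 37.7 CPM per kb, followed by Dlk2 at 17.8, Slc4a11 at 16.7 and 3110039I08Rik at 13.1 CPM per kb. The length joins every annotated exon of a gene, 23898 bases for 3110039I08Rik and 1408 for Prl, and not a single transcript. The order of the genes on this scale is therefore rough. Siglecg was the lowest at 2.97 CPM per kb.

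**Figure D2:**
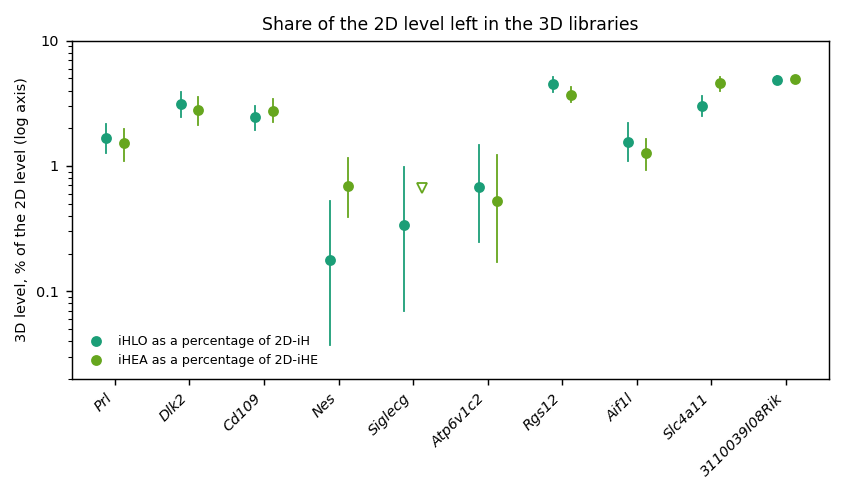
Level in the 3D culture as a percentage of the 2D culture with the same cells (log axis): iHLO of 2D-iH and iHEA of 2D-iHE, from means of 2 libraries each, with lines for the 95% counting interval. The open triangle is the upper limit for Siglecg in iHEA, which had no count, set at 3 counts per library; Nes, Siglecg and Atp6v1c2 kept under 1% in both pairs and 3110039I08Rik kept 4.87% and 4.91%.

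Whether co-culture with iECs changed these genes could be tested, since the rule compared 3D with 2D only. In 2D, 5 of the 10 genes were higher in 2D-iHE than in 2D-iH at an adjusted p under 0.05 (edgeR quasi-likelihood test, Benjamini-Hochberg over 13409 genes) and none was lower, while 8.17% of all tested genes were called, 4.26% higher and 3.92% lower. Aif1l rose most, by a log2 fold change of 0.94 (SE 0.06, adjusted p = 2.61e-06). Slc4a11 rose by 0.59 (SE 0.05, adjusted p = 5.24e-05), Nes by 0.48 (SE 0.07, adjusted p = 0.00114), Rgs12 by 0.42 (SE 0.05, adjusted p = 6.10e-04) and 3110039I08Rik by 0.36 (SE 0.06, adjusted p = 0.00193), a call lost with all 14 libraries in the fit (0.34, adjusted p = 0.133). In each of these 5 genes both 2D-iHE libraries lay above both 2D-iH libraries. That order follows closely from the calls and is no further support, and its share over all tested genes was not counted.

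The other 5 genes were not called in 2D. Their log2 differences with 95% intervals were 0.20 (0.00 to 0.39, adjusted p = 0.269 in edgeR) for Atp6v1c2, 0.15 (-0.05 to 0.35) for Siglecg, 0.11 (-0.01 to 0.23) for Cd109, 0.02 (-0.10 to 0.15) for Dlk2 and -0.04 (-0.16 to 0.09) for Prl.

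In 3D, 7 of the 10 genes had 15 counts or more in every library, and 2 of these 7 were higher in iHEA than in iHLO, where 2.26% of tested genes were called, 1.19% higher and 1.07% lower. Slc4a11 rose by 1.18 (SE 0.13, adjusted p = 4.18e-04 in edgeR), and 3110039I08Rik rose by 0.36 (SE 0.08, adjusted p = 0.0382). The call for 3110039I08Rik was lost in 5 of 14 alternatives, among them those without either iHLO library (adjusted p = 0.339 and 0.0754) and without either 2D-iH library (0.0631 and 0.0636). Nes, Siglecg and Atp6v1c2 had at most 8 counts in a 3D library and passed the filter on low counts through their 2D libraries, so that no fold within 3D is given for them.

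The co-culture difference itself differed between 3D and 2D for Slc4a11 alone among the same 7 genes, where 3.14% of tested genes were called, 1.52% with a larger value in 3D and 1.62% with a smaller one. It was larger in 3D by 0.58 (SE 0.14, adjusted p = 0.0408 for the interaction term in edgeR). This call did not hold when any of 7 of the 8 libraries was left out, with adjusted p-values of 0.0639 to 0.212 and a difference of 0.55 to 0.64, and of these 8 fits it held only in that without iHEA replicate 1. The value for Aif1l was -0.34 (-0.85 to 0.18, adjusted p = 0.691). These comparisons share libraries with each other.

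**Figure D3:**
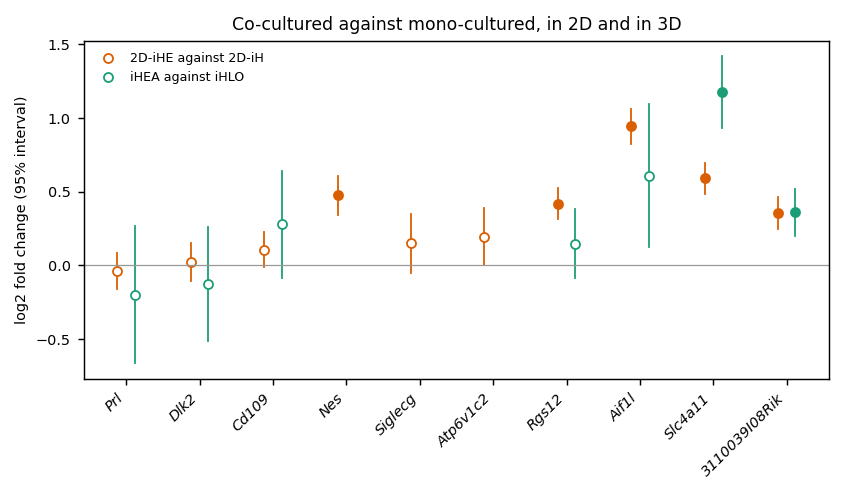
Log2 fold change with 95% interval of co-cultures over mono-cultures for each gene, in 2D (2D-iHE against 2D-iH) and in 3D (iHEA against iHLO), from 2 libraries per condition; filled points passed an adjusted p of 0.05 and open points did not. Points for Nes, Siglecg and Atp6v1c2 in 3D are left out since no library had more than 8 counts; Slc4a11 and 3110039I08Rik are filled in both formats.

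The reference tissues were compared next, as libraries that the choice of genes had not used. At the level of description, 9 of the 10 genes were higher in every 2D library than in every MEF library, with 3110039I08Rik as the exception; of the 13409 genes tested over the cultures, 53.0% had this order. Likewise 9 were higher in every 2D library than in both fetal livers, with Nes as the exception, and all 10 were higher than in both adult livers, orders that 49.8% and 54.7% of the 13409 genes had. Since the genes were chosen as counted in 2D, a high 2D level is in part built into these counts. The 3D mean was below the MEF mean for 8 genes, all but Prl and Slc4a11, below the fetal liver mean for 6 and below the adult liver mean for 4, where 42.6%, 42.7% and 38.1% of the 13409 genes had these orders; a low 3D level is likewise built into the choice, and nothing is read from these counts for the set. Atp6v1c2, 1 of the 8 and of the 4, had at most 6 counts in these libraries, and with library totals in place of TMM its 3D mean was 1.40 times that of adult liver. Nes in 3D, at 0.146 CPM, was far under its level in MEFs (19.7 CPM), fetal liver (57.4 CPM) and adult liver (7.88 CPM).

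Between fetal and adult liver, 8 of the 10 genes could be tested, as Prl and Atp6v1c2 fell under the filter on low counts. In that fit 84.0% of 14876 genes were called, 44.0% higher in fetal liver and 40.0% lower, so a call is common here. Rgs12 was higher in fetal liver by 2.02 (SE 0.08, adjusted p = 3.49e-09 in edgeR), Nes by 2.84 (SE 0.19), Aif1l by 3.35 (SE 0.36) and 3110039I08Rik by 4.22 (SE 0.32). Cd109 had 64 and 91 counts in fetal liver and none in adult liver, and was at least 12.5-fold higher against 3 counts per library.

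Slc4a11 was the only one of the 8 that was lower in fetal liver, by -1.60 (SE 0.40, adjusted p = 0.00413 in edgeR), from 12 and 14 counts in adult liver to 7 and 11 in fetal liver. Library totals in place of TMM moved the median of all genes from 0.10 to 1.55 in this comparison, and Slc4a11 then no longer passed, at -0.16 (adjusted p = 0.712). Siglecg (0.16, adjusted p = 0.750 in edgeR) did not pass with TMM but passed with totals, at 1.60. Dlk2 had 2 and 1 counts in adult liver and 7 and 8 in fetal liver. It passed the filter on low counts through its MEF libraries (185 and 203 counts), so that no fold between the livers is given for it. Of these 3 genes no library of either tissue held more than 47 counts.

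Against MEFs, where 86.0% of the 14876 genes were called (45.1% higher and 40.9% lower in fetal liver), 6 of the same 8 genes were called. Nes rose by 1.57 (SE 0.15, adjusted p = 4.16e-06 in edgeR) and Rgs12 by 0.64 (SE 0.07). The log2 difference was -4.58 for Dlk2, -3.89 for Cd109, -2.64 for Slc4a11 and -3.90 for 3110039I08Rik, all called as lower in fetal liver. Siglecg (0.93, adjusted p = 0.0656) and Aif1l (-0.44, adjusted p = 0.0733) missed the threshold in this fit and passed it in 5 of 12 and 4 of 13 alternatives, among them, for both, that without fetal liver replicate 2 (1.24 and -0.71). The set thus had no common order across these tissues.

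The genes related to each of the 10 were examined in 3D against 2D, where the median log2 fold change of all tested genes was 0.01. Counts are those at an adjusted p under 0.05 in the same edgeR fit, in which 75.9% of the tested genes were called. Of 26 other members of the prolactin and growth hormone family, only 2 passed the filter and both were lower in 3D, Prl2c2 by -2.68 and Prl2c3 by -2.51; these near-identical paralogs may share reads, so that their values are uncertain. Of the prolactin receptor pathway, 4 of 8 tested genes rose and 1 fell (median 0.25): the feedback inhibitor Socs3 rose by 1.12, the kinase Jak2 by 0.70, and the growth hormone receptor Ghr fell by 1.30. Prlr, the prolactin receptor, named here after its values were seen, had at most 2 counts in any 2D library and at most 6 in any 3D library, against 46441 and 47695 counts in adult liver.

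In the Notch pathway, the setting in which DLK2 acts, 9 of 15 tested genes fell and 5 rose (median -0.85). Notch3 fell by 3.71, Notch4 fell by 2.19 and Lfng, which modifies Notch receptors, fell by 1.24, whereas the ligand Dll1 rose by 4.73. Dlk1, the closest relative of Dlk2, had no count in any 2D library, 1 to 41 counts in iHLO and 0 to 4 in iHEA, and a mean of 97.2 CPM in MEFs and 1140 CPM in fetal liver. Dlk2 and Dlk1 thus had different orders across the 7 conditions.

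Among the relatives of Cd109, the 3 tested genes of the alpha-2-macroglobulin and complement family all rose, C4b by 5.65, C3 by 3.35 and Hc by 1.21. The 3D level of C3 rested in part on iHEA replicate 1, at 238 CPM, without which the 3D mean was 53.5 CPM in place of 99.7 CPM, against 10.1 CPM in 2D. Of TGF-beta receptors and targets, 9 of 13 fell and 3 rose (median -0.38). The ligand Tgfb1 fell by 1.86. The co-receptor Tgfbr3 rose by 2.33 and the receptor Eng fell by 1.35.

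Intermediate filament genes, the family of nestin, were lower in 10 of 14 cases and higher in 2 (median -0.69). Prph fell by 3.56, the basal keratin Krt5 fell by 3.52, Des fell by 2.23 and the nuclear lamin gene Lmnb1 fell by 1.66. Vim, with which nestin assembles and which is named here after its values were seen, fell by 1.29, from 1750 CPM to 698 CPM, so that 2D and 3D differed far less for it than for Nes. Calcium-binding and bundling regulators of actin, related to AIF1L, fell in 9 of 10 cases and rose in 1 (median -0.80). Aif1, the closest paralog of Aif1l, fell by 2.40 but from only 0.755 CPM; Lcp1 fell by 1.87, S100a4 fell by 1.78 and Pls3 fell by 1.14.

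Most V-ATPase subunits went the other way from Atp6v1c2. Of 20 tested, 16 rose and 1 fell (median 0.34), and 2 fell without iHEA replicate 1 and with all 14 libraries in the fit. Atp6v0a4, named after its values were seen, had 17 to 24 counts in 2D, 1 and 2 in iHLO, and 26 in iHEA replicate 1 against 2 in the other iHEA library, and was not called (-1.43, adjusted p = 0.0788 in edgeR). Atp6v1c1, the other isoform of the C subunit, rose by 0.21 (SE 0.04, adjusted p = 6.96e-04), from 101 CPM to 115 CPM. Atp6v1b2 rose by 1.29, Atp6v0b by 1.01 and the accessory gene Atp6ap1 by 0.92, and Atp6v1a fell by 0.16. Atp6v1c2 was thus low in 3D while most other subunits of the pump rose.

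Of the RGS family, 5 of 8 tested genes fell and 3 rose (median -0.66). Rgs20 fell by 7.07, more than Rgs12 differed, with 26.8 ± 1.11 CPM (SD) in the 4 flat cultures and 0.187 ± 0.0585 CPM (SD) in the 4 gel cultures. Rgs16 fell by 3.89 and Rgs10 fell by 3.14, while Rgs11 rose by 2.43. Of the SLC4 transporters, 3 of 6 fell and 2 rose (median -0.29): the bicarbonate transporter Slc4a4 fell by 2.11 and Slc4a8 fell by 1.59, and Slc4a2 and Slc4a5 rose by 1.18 and 0.94. Only 1 SLC4 gene rose in 3 of the 8 fits that left out a library, those without 2D-iHE replicate 2, iHLO replicate 2 and iHEA replicate 1, and 4 rose with no filter on low counts. Of the 9 Siglec genes listed none passed the filter; Siglece, Siglecf and Siglec1 had at most 8 counts in any culture library.

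**Figure D4:**
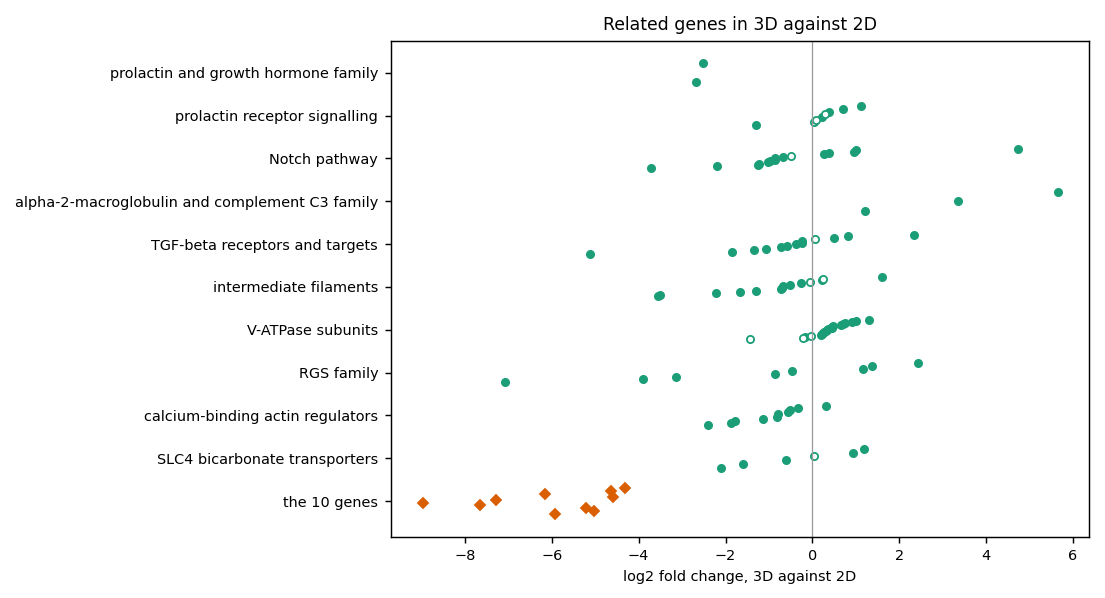
Log2 fold change of 3D against 2D for each tested gene of 10 lists of related genes (circles, filled at an adjusted p under 0.05) and for the 10 genes of the set (diamonds, chosen on this contrast), from 4 libraries against 4. Most circles lie between -4 and 2; Rgs20 at -7.07 is the lowest, and 16 of the 20 V-ATPase subunits lie filled on the right.

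In 2D-iHE against 2D-iH, where 8.17% of all tested genes were called, Notch pathway genes were called in 6 of 15 cases, 5 of them higher, the SLC4 list in 2 of 6, both higher, and the actin regulators in 2 of 10, both lower. Of the TGF-beta list 1 gene of 13 rose and 1 fell, and 1 of 14 intermediate filament genes and 1 of 8 RGS genes fell. None of the prolactin, prolactin receptor, complement and V-ATPase genes tested was called there by edgeR. In iHEA against iHLO, where 1.19% of all tested genes were higher and 1.07% lower, 2 of 14 intermediate filament genes and 1 of 6 SLC4 genes were higher. There 1 of 13 genes of the TGF-beta list was lower, and no tested gene of the other related lists was called.

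Marker genes of the cell types that these genes are known from were counted as well. Of 8 pituitary markers, whose sum was 0.166 to 0.346 CPM in 2D and 0.303 to 0.561 CPM in 3D, Lhb and Fshb had no count in any 2D library. Pou1f1, which drives Prl in the pituitary, had at most 1 count in a 2D library and 3 in a 3D library. Of these markers 1 could be tested and rose; the call was lost without either 2D-iHE library, either iHLO library or 2D-iH replicate 1, with all 14 libraries in the fit and in the DESeq2 Wald test. Of 12 B-cell and leukocyte markers, 4 could be tested, 2 rose and 2 fell, and their sum was 4.52 to 6.29 CPM in 2D and 11.6 to 16.0 CPM in 3D. In 2D the list held mainly Blnk, with 36 to 105 counts a library, Cd3e with 33 to 52, Csf1r with 20 to 40 and Cd74 with 8 to 27, while Cd79a had at most 6 counts and Cd79b none; Cd74 rose by 3.37 and Blnk by 1.89, and Cd3e fell by 3.75 and Csf1r fell by 0.96. Of 9 neural progenitor markers, Sox1, Sox2, Pax6 and 4 others had no count in 2D, the sum was 1.60 to 2.93 CPM in 2D and 0.904 to 2.21 CPM in 3D, and neither of the 2 tested genes was called by edgeR, though 1 was called as lower without iHEA replicate 1, with all 14 libraries in the fit and with the replicate block.

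Proliferation markers moved with the set. All 10 fell in 3D (median -2.32), with a sum of 1433 to 1574 CPM in 2D and 358 to 418 CPM in 3D, and none had a zero count in a culture. Among the tissues that sum was 4660 to 5146 CPM in fetal liver, 798 to 823 CPM in MEFs and 173 to 176 CPM in adult liver, an order that Nes and Rgs12 had too. In 2D-iHE against 2D-iH, none of the 10 was called, while 5 genes of the set rose. Their part in the difference of the set between 3D and 2D was not tested.

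Endothelial markers rose in 5 of 6 tested cases in 3D, with a sum of 414 to 491 CPM in 2D and 878 to 1377 CPM in 3D. Vwf rose by 4.82, from a mean of 21.3 CPM to 587 CPM, and Tek by 5.90, from 1.71 CPM to 100.3 CPM, while Cdh5 was at 427 CPM in 2D and 410 CPM in 3D and was not called (-0.02, adjusted p = 0.733 in edgeR); Erg had no count in 3D and at most 1 in a 2D library. Endothelial markers were lower in 3 of 6 cases in 2D-iHE than in 2D-iH and in 3 of 6 in iHEA than in iHLO, where 3.92% and 1.07% of all tested genes were lower, and the sum was higher in both iHLO libraries than in both iHEA libraries. Hepatocyte markers rose in 3 of 5 cases in 3D, and 1 fell without 2D-iHE replicate 1 and without iHLO replicate 1. Of the 5, 2 were lower in 2D-iHE than in 2D-iH and 1 in iHEA than in iHLO, against the same 3.92% and 1.07%. Their sum in cultures was mainly Apoa1 and Apob, with 302 and 368 CPM in 2D. Tat had a 3D mean of 5.50 CPM, or 1.91 CPM without iHEA replicate 1. Alb had a mean of 0.334 CPM in 3D and 1.57 CPM in 2D, or 0.148 CPM in 2D without 2D-iH replicate 1. Of 6 tested fibroblast markers 2 rose and 2 fell in 3D, and the only tested erythroid marker rose; erythroid markers summed to 32066 to 32889 CPM in fetal liver and at most 1.06 CPM in a culture. The part of these lists in the values of the set was not tested.

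Neighbouring genes show whether the low levels in 3D extended along the chromosome. Of the 20 nearest genes of the table on either side of the 10 genes, 10 could be tested in 3D against 2D, of which 6 fell and 1 rose, with a median of -0.45, where 37.2% of all tested genes fell. Lamc3, a laminin gene 3600 bp below Aif1l, fell from 1.42 CPM to 0.043 CPM. That 3D mean lies under the level of 3 counts in any library, so the fitted value of -4.98 is uncertain in size. Nup214, 994 bp above Aif1l, differed by -0.00 (adjusted p = 0.994 in edgeR). Kcnf1, 107833 bp below Atp6v1c2, fell by 4.01, and Nol10 on the other side fell by 0.66. Tjap1 beside Dlk2 fell by 1.67 and 4930402H24Rik beside Slc4a11 fell by 1.10; Slc17a5 beside Cd109 rose by 1.22. The neighbours of Prl, Nes, Siglecg and 3110039I08Rik were too low to be tested, and Prl3d1, the nearest prolactin gene, had at most 1 count in a culture.

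Since the sources used here do not state whether counting used strand, genes that overlap the set matter for its values; 5 of the 10 genes overlap 7 other genes of the table. Abcc10 lies on the opposite strand over part of Dlk2 and rose by 0.31, and Pdia6 lies likewise over part of Atp6v1c2 and rose by 0.24, so neither overlapping gene was lower in 3D. The others were Mir3097 in Rgs12, 4921509A06Rik in Cd109 and the 3 miRNA hairpins in 3110039I08Rik, none of which passed the filter.

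**Figure D5:**
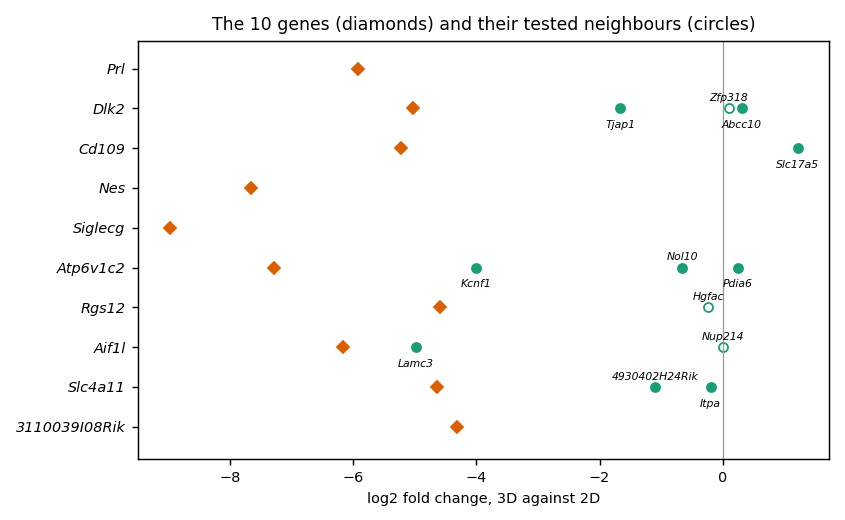
Log2 fold change of 3D against 2D for each gene of the set (diamonds) and for its tested nearest or overlapping genes (circles, filled at an adjusted p under 0.05), 1 row per gene. Lamc3 and Kcnf1 are the only circles under -4, and the others lie between -1.67 and 1.22.

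Finally, the genes with the most similar profile were sought by Pearson's correlation of log2 CPM over the 14 libraries among 14111 genes, as a description in which all points share the same 7 conditions. The closest to Prl were Ap1s2 (r = 0.993), Ube3c and Prrg4; to Dlk2, Srgap3 (0.991), Rbms1 and Dlg1; and to Cd109, Slc9a5 (0.993), Cep170 and Homer3. Nes was closest to Phf19 (0.975), Rapgef1 and Dtna, and Rgs12 to Dtna (0.979), Slc48a1 and Phf19, so these shared 2 of 3 names. For Siglecg they were Ppil3 (0.989), Fopnl and Fam57b, for Atp6v1c2 Vps13a (0.978), Mrpl33 and Fgd3, and for Aif1l 9230114K14Rik (0.970), Rps6ka2 and Ckap2. Slc4a11 was closest to Uevld (0.982), 9130401M01Rik and Slpi, and 3110039I08Rik to Ackr3 (0.990), Arhgef40 and Kif7. Spearman's correlation named only 2 of the same 30 genes. A high r did not require a fold of the same size: Ube3c, with r = 0.993 to Prl, had a mean of 146 CPM in 2D and 102 CPM in 3D.

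The genes of the set were all chosen as high in flat and low in gel cultures, so a positive r between them is in part built in. No background value is given, and nothing is read from the median for the set. Within the set, the 45 pairs had a median r of 0.673. The highest was 0.990, between Cd109 and 3110039I08Rik, which were both high in MEFs and 2D and low in adult liver, and the lowest was 0.076, between Prl and Nes, the first absent from all tissues and the second highest in fetal liver.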

How the data were processed

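Total RNA of 7 conditions with 2 libraries each was sequenced as 150 bp paired-end reads. According to the study's methods and the submitters' processing notes, which name Trimmomatic 0.36, the authors aligned reads with HISAT2 to the mouse genome (GRCm38, mm10), annotated them with Cufflinks and deposited counts per gene from HTSeq. Strand setting, annotation release and treatment of reads with several matches are not given in the sources used here. The values were whole numbers with different totals and were used as raw counts. Positions came from a GENCODE annotation of GRCm38 (27619 of 28022 genes, 98.6%) and sequences from RefSeq tables. Groups came from the labels; the second iHEA column, whose label points to more than 1 sample, was treated as an unnumbered iHEA library.

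A gene was tested if log2(count + 1) averaged 3 or more in the libraries of a fit, with edgeR 4.0.16 (TMM, quasi-likelihood, R 4.3.3) and Benjamini-Hochberg adjustment over all of them: 3D against 2D (4 libraries against 4), 2D-iHE against 2D-iH, iHEA against iHLO and their difference (8 libraries, 1 term per condition), and fetal liver against adult liver and MEF (6 libraries). The common coefficient of variation was 7.40%, 4.76% and 6.32% in these fits. In simulated counts with 200 genes changed by a log2 of 1, 93.5% were recovered with 6.03% false calls for 3D against 2D, 84.0% with 10.6% for 2D-iHE against 2D-iH and 88.0% with 9.74% for fetal against adult liver. Each share of false calls was above the 0.05 of the threshold. Far fewer genes were changed there than the real fits called (75.9% in 3D against 2D), so these shares do not carry over to the real calls. CPM are TMM-scaled over 14 libraries, and correlations used a prior count of 2. Ratios against 0 use 3 counts per library; 95% intervals of ratios of counts (exact binomial) cover counting error only.

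The 10 genes and all gene lists (related families and cell type markers) were chosen with earlier results of these data known. Named are the 10 genes, up to 4 called genes per family list with the largest change, closest paralogs, the 3 most similar genes and the nearest neighbours, plus marker genes, Prlr, Vim, Atp6v1a, Atp6v0a4 and 3 Siglec genes that were picked after their values were seen. Some list genes are counted in the lists but not reported here by name. Alternatives were other filters, DESeq2 1.42.0 size factors or Wald test, library totals, all 14 libraries, a replicate block, leaving out each library, CPM by totals and Spearman's correlation. Library numbers of the titles did not pair libraries (correlations of deviations -0.0391 to 0.0355 within the fits).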

Additional observations from a re-analysis of the deposited data

Results flagged for a closer look

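Of the levels in the groups of 4 libraries (2D and 3D), 3 had a highest or lowest library far from the rest, with a gap to the nearest library, over the whole range, above Dixon's 95% critical value; chance gives this in about 1 in 20 groups, and 20 groups were examined. Cd109 was lowest in 2D-iH replicate 2 at 48.8 CPM (gap over range 0.885), Atp6v1c2 was lowest in the iHEA library without a number (0.879), where it had 2 counts against 3 in the others, and Rgs12 was highest in 3D in iHEA replicate 1 at 4.02 CPM (0.863). These groups pool mono-cultures and co-cultures.

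For Slc4a11 the co-culture difference was larger in 3D than in 2D by 0.58 on the log2 scale, by the test of the difference itself given above. It rests on 2 libraries per condition, and the call did not hold when any of 7 of the 8 libraries was left out (adjusted p = 0.0639 to 0.212 in edgeR).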

How the results depend on the processing

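The 10 genes were lower in 3D than in 2D in all 159 values of 16 alternatives, with log2 fold changes of -9.89 to -4.23. This direction is built into the choice of the genes and is no support for it. Of 557 alternative values for 40 tests of these genes within 2D, within 3D and between tissues, leaving out tests within 3D of the 3 genes with under 10 counts in each 3D library, 520 kept their direction and side of the threshold, 14 lost the threshold, 11 newly passed it and 12 changed sign. The 40 tests include that of Dlk2 between fetal and adult liver, for which no fold is given above. The changes of sign were in tests with a main value of at most 0.164 in size. They were Prl in 2D (0.0388 without 2D-iH replicate 1, down to -0.105 without another library), Dlk2 in 2D (-0.00872 without 2D-iH replicate 1, -0.0359 without 2D-iHE replicate 1, up to 0.0740 without another), Rgs12 in 3D (-0.00297 without iHEA replicate 1, up to 0.265 without the other iHEA library), and the interaction term of 3110039I08Rik (-0.00915 with no filter, -0.00419 with library totals, and -0.0793 to 0.0893 over all alternatives). Siglecg between fetal and adult liver changed sign too and spread widely (-0.405 without adult liver replicate 1, -0.221 without fetal liver replicate 1, up to 1.05 without another and 1.60 with library totals). In 2D, the call for 3110039I08Rik was lost when all 14 libraries were fitted together (0.343, adjusted p = 0.133).

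The counts of all genes called in the co-culture comparisons moved more. In 2D it was 1096, and 250 to 2014 when 1 library was left out (2014 and 2002 without iHEA replicate 1 and without the iHEA library that has no number), but 5 genes of the set were called each time. Between iHEA and iHLO it was 303, then 881 with no filter and 93 to 723 without 1 library; of the set 2 were called, 1 with all 14 libraries and 1 to 2 without 1 library. For the interaction it was 421, then 901 with no filter and 129 to 959 without 1 library, and 0 to 1 gene of the set was called. The cause was not tested.

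With a replicate block, 1952 genes were called in 2D, but the block could only be fitted without the iHEA libraries, since 1 of them has no number, and the same libraries without the block, an alternative chosen after seeing the data, gave 2029. The block changed 1 call of the set, Aif1l between fetal liver and MEF (-0.46, adjusted p = 0.0480), and could not be fitted for iHEA against iHLO or the interaction. A depth of 3 counts per library limits Siglecg, Atp6v1c2 and Nes in 3D. Counts of related and marker genes in 3D against 2D moved too: with no filter 4 fibroblast markers, 2 Siglec genes and 4 SLC4 genes rose and 4 prolactin genes fell; with all 14 libraries in the fit 1 B-cell or leukocyte marker and 1 endothelial marker fell; with all 14 libraries and with the block 1 intermediate filament gene rose; with the DESeq2 Wald test 3 Notch genes rose; and without the iHEA libraries 1 fibroblast marker rose. With the filter at 5 in place of 3, which tests fewer genes, 2 Notch genes and 1 gene each of the RGS, SLC4, intermediate filament and fibroblast lists rose, 1 fibroblast marker fell, and the called pituitary and erythroid markers and both B-cell or leukocyte markers that fell were no longer tested.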
